A study of Mus musculus with 24 samples.

Results

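The decay and persistence of an interferon γ (IFNγ) response were followed across its withdrawal in mouse cells undergoing reprogramming to induced pluripotent stem cells (iPSCs). Cells sorted at day 7 as SSEA1+ and X-GFP negative, 2 days after IFNγ was removed, were set against SSEA1+ cells sorted at day 5, the last day of treatment. Every gene with a mean normalized count above 10 over the 4 libraries of these groups was taken, which gave 15485 of the 37315 genes in the table, measured in 4 of the 24 RNA-sequencing libraries of the series. The rule used levels only and no difference between the groups.

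All cells came from PaX, 1 engineered female hybrid line of the 129S1/SvImJ and CAST/EiJ strains, which was differentiated to neural precursor cells and then reprogrammed on male irradiated fibroblast feeders. Doxycycline switched on a Myc, Klf4, Oct4 and Sox2 cassette placed with its transactivator in the Sp3 locus, so reads on those 4 genes can come from the cassette and were not separated. A GFP reporter sits in the Hprt locus of the Mus musculus X chromosome (X mus), the copy silenced in the precursor cells because of a truncated Tsix gene, and SSEA1 is a surface mark of early pluripotency. The treated arm received 10 ng/ml IFNγ from day 0 to day 5 and the control arm received none, while both arms had LIF, ascorbic acid and doxycycline throughout. Each arm was sampled at day 5 without an X-GFP gate and at day 7 as X-GFP negative, with 2 libraries per group. Within an arm the time, the seeding density, the X-GFP gate and, in the treated arm, the end of IFNγ changed together and cannot be told apart. The control arm went through the same days, densities and gates, so the difference between arms, which is the log2 change in the treated arm minus that in the control arm, is given beside the main results. The same gate can keep a different part of the cells in each arm, since the paper reported more X-GFP positive cells and fewer colonies after early IFNγ. In the difference between arms this cannot be told apart from the end of IFNγ.

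IFNγ binds a receptor made of IFNGR1 and IFNGR2, and the kinases JAK1 and JAK2 then pass the signal to genes with GAS elements in their promoters. The signal raises transcription factors of the IRF family, which act at related elements called ISREs and extend the response to GTPases of cell-autonomous immunity and to antigen presentation by MHC class I. SOCS1 and phosphatases shut the signal off, and transcripts then fall at rates set by their own synthesis and decay.

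Between 25966420 and 37056508 reads fell on genes in the 4 libraries of the treated arm, and between 28448304 and 34794609 in those of the control arm. The 10 pluripotent-cell markers summed to 60628 to 62555 normalized counts at day 5 and 67149 to 69981 at day 7 in the treated arm, none of them at the floor of 3 reads in each library. In the control arm they summed to 61386 to 63027 and 53309 to 58640. The list includes Oct4 (Pou5f1) and Sox2, whose reads can come from the cassette. Transcripts of the male feeders were near the floor, with 7 of 8 Y-linked genes at or under it at day 5 and 8 of 8 at day 7 in both arms. Fibroblast markers summed to 975.1 to 1528 normalized counts at day 5 and 1100 to 1102 at day 7 in the treated arm, against 1764 to 2640 and 4483 to 5108 in the control arm. Immune-cell markers summed to 1358 to 1864 and 1559 to 1652 in the treated arm and to 1159 to 1295 and 3231 to 3669 in the control arm. Of the 10, 3 to 6 were at or under the floor in each group, among them the macrophage marker Adgre1 and the T-cell marker Cd3e in all 4. Cd68, Csf1r and Laptm5 of the same list were at the floor in no group. The 9 neural progenitor markers summed to between 5174 and 6067 in all 8 libraries, with Olig2 at the floor. The labels only number the replicates, and the methods call them independent without saying what was kept apart, so p-values measure the spread between these samples. An exact permutation test of 2 against 2 libraries cannot go below p = 0.33, so single genes were tested only with limma across all genes, at an adjusted p under 0.1.

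In the treated arm 3571 genes (23.1%) were higher and 3745 (24.2%) lower at day 7 X-GFP negative than at day 5. The median log2 change was -0.01, and 48.8% of the calls were higher. With every library brought to an equal total, the median rose by 0.07 and the share of higher calls was 59.4%. Leaving out day 7 replicate 1 of the treated arm reduced the counts to 1691 and 1680. Between arms, 2746 genes (17.8%) changed more upward and 3465 (22.5%) more downward in the treated arm than in the control arm, over 15407 genes. Here rescaling raised the median by 0.15, to 4132 and 2428 calls and a share of higher calls of 63.0%, up from 44.2%, so a difference between arms of that size depends on the scaling. The counts were 1720 and 2562 without day 7 replicate 2 of the treated arm and 1630 and 2285 without day 7 replicate 1 of the control arm. The bulk libraries cannot tell fewer cells of a type from less RNA per cell, which holds for every level below.

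At day 5, the end of treatment, 249 of 15133 genes (1.65%) were higher in treated than in control cells and 81 (0.535%) lower. These counts rested on each library: they were 958 and 823 without treated replicate 1, 97 and 7 without treated replicate 2, 157 and 6 without control replicate 1, and 148 and 33 without control replicate 2. The same contrast at day 7 X-GFP negative, 2 days after withdrawal, called 4836 of 15531 genes (31.1%) higher and 4781 (30.8%) lower. With a block for the replicate number, the counts were 1810 and 1569 at day 5 and 5464 and 5333 at day 7. The 2 libraries of a group differed more at day 5, with chi-square per degree of freedom of 15.3 in treated and 10.8 in control cells, against 6.72 and 6.04 at day 7. The counts thus do not measure the size of the response, and their difference between days was not tested.

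The promoters of 5 genes are printed to show the sequence settings of a responding transcription factor, a guanylate-binding protein (GBP), an immunity-related GTPase (IRG) and 2 genes of antigen presentation. Each is the 250 bases before the start site from RefSeq on GRCm38.p6, written 5′ to 3′ on the gene's strand. Capitals mark matches to a GAS, spelled TTCNNNGAA, or to an ISRE, taken as GAAA, any 2 bases and GAAA again, searched on both strands, and the matches shown do not overlap each other.
Irf1, chr11:53769764-53770013, plus strand: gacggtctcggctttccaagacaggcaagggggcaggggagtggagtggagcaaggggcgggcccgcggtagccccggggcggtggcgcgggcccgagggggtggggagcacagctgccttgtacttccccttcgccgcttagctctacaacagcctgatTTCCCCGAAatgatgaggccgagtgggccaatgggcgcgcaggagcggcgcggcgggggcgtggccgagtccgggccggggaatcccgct
Gbp2, chr3:142620413-142620662, plus strand: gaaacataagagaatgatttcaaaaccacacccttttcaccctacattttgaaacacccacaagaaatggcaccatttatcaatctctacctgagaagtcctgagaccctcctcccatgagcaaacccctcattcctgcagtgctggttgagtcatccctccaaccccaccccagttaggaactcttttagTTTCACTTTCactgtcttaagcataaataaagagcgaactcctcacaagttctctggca
Igtp, chr11:58199306-58199555, plus strand: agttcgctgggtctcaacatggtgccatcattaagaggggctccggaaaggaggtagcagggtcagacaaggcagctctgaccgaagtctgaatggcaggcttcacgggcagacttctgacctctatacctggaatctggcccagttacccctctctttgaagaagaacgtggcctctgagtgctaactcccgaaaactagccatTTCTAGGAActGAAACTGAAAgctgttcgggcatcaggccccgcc
Psmb8, chr17:34197945-34198194, plus strand: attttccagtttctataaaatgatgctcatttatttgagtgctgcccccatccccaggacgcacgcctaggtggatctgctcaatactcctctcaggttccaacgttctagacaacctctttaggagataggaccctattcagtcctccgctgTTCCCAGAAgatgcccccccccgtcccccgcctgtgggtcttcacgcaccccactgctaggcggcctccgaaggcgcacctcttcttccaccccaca
H2-K1, chr17:34000348-34000597, minus strand: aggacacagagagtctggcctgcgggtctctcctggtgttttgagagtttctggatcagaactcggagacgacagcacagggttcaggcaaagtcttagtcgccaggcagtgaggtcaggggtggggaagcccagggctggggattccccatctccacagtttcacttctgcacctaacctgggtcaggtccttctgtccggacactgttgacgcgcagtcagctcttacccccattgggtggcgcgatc
The Irf1 and Psmb8 windows hold a GAS match that starts 90 and 97 bases before the start site. Gbp2 holds an ISRE match at 59 bases, and Igtp holds a GAS match at 45 bases followed by an ISRE match 11 bases further on. The H2-K1 window holds neither string of letters, while 3 of the 11 MHC class I genes with a promoter in the table held an ISRE match and 1 a GAS match. Of all 32851 promoters in the table, 7.02% held a GAS match and 2.98% an ISRE match. Of the IRG genes, 10 of 14 had a promoter in the table, 6 of them with a GAS match and 7 with an ISRE match, and the same spacing of 11 bases from GAS to ISRE was found in Igtp, Irgm2, Tgtp1, Tgtp2 and Gm12185. All 4 GBP genes with a promoter in the table held an ISRE match. Among the genes of class I antigen processing 1 of 11 held a GAS match and 0 of 11 an ISRE match.

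Both receptor chains went up after withdrawal. Of 10 genes for interferon receptors, JAKs and STATs, 3 rose and 2 fell, near the shares of all genes (23.1% and 24.2%). The median log2 change was 0.01, and fewer rose without day 7 replicate 2. Stat2, a subunit of the type I interferon complex, went from 1231 and 1263 to 858.0 and 790.9 normalized counts (log2 change -0.60 ± 0.09 (SE), adjusted p = 0.0032). Ifngr2, the signaling chain of the receptor, rose from 88.0 and 68.8 to 191.2 and 153.4 (log2 change 1.13 ± 0.21 (SE), adjusted p = 0.0074), and control cells read 72.4 and 73.7 at day 5 and 186.5 and 149.1 at day 7. Ifngr1, the ligand-binding chain, rose by 0.41 on the log2 scale (adjusted p = 0.046), a call lost without day 7 replicate 2. Between arms 6 of the 10 genes were lower and the other 4 not called. Among the 6 were the kinase genes Jak1 (difference between arms -0.64 ± 0.12 (SE), adjusted p = 0.0045) and Jak2 (difference between arms -0.77 ± 0.21 (SE), adjusted p = 0.021). For both kinases the treated libraries of the days overlapped, with Jak1 at 2166 and 2489.6 and then 2387 and 2309, while the control libraries went up, with Jak1 at 2239.5 and 2069 at day 5 and 3543 and 3263 at day 7.

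Among the 9 interferon regulatory factors, 8 were tested and 6 fell, with a median of -0.66. Irf8, a factor best known from myeloid cells and strongly IFNγ-inducible, read 381.1 and 319.5 normalized counts at day 5 and 87.0 and 105.9 at day 7. Control cells held 3.37 and 2.66 at day 5 and 8.78 and 9.66 at day 7, so every treated library was above every control library. Irf8 fell (log2 change -1.85 ± 0.18 (SE), adjusted p = 0.00089) and had a negative difference between arms (difference between arms -3.20 ± 0.36 (SE), adjusted p = 0.00074). With so few reads in control cells, the size of that difference depends on the pseudocount. Irf1, an early target of IFNγ, fell from 4852 and 4638 to 3152 and 2951 normalized counts (log2 change -0.64 ± 0.07 (SE), adjusted p = 0.0014), and kept 64.3% of its day 5 mean. Irf9, which joins STAT2 in that complex, fell from 1038 and 1178 to 688.4 and 682.0 (log2 change -0.69 ± 0.10 (SE), adjusted p = 0.0029); control cells at day 7 held 633.0 and 649.1. Irf7, the amplifier of type I interferon, fell from 104.3 and 110.7 to 58.0 and 53.5 (log2 change -0.94 ± 0.20 (SE), adjusted p = 0.012) while control cells went from 46.3 and 44.4 to 90.0 and 69.7. Between arms 6 factors were lower. Irf3, which is activated by viral sensing, was higher, a call lost without replicate 2 of any group but control day 7 or without control day 7 replicate 1.

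Of 10 genes that restrain interferon signaling, 3 rose and 2 fell in the treated arm, with a median of 0.10, near the shares of all genes (23.1% and 24.2%). The falls were lost without day 5 replicate 1 or day 7 replicate 1, and 1 was left without day 7 replicate 2. Socs1, the inhibitor of JAK1 and JAK2 that IFNγ induces, read 144.9 and 136.8 at day 5 and 179.3 and 126.7 at day 7, so the groups overlapped, and its mean was 4.18-fold and then 2.20-fold that of control. Socs3, the inhibitor that acts mainly on gp130 receptors, rose from 4259.9 and 4255 to 6275 and 5661 (log2 change 0.49 ± 0.07 (SE), adjusted p = 0.0036). Control cells rose from 2973 and 2929.8 to 5524 and 5578, and the difference between arms was negative (-0.43, adjusted p = 0.0082). Ptpn6, which encodes the phosphatase SHP-1, rose from 438.1 and 426.3 to 654.0 and 722.6 (log2 change 0.67 ± 0.11 (SE), adjusted p = 0.0042).

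The GBPs, GTPases that assemble on pathogen vacuoles, declined throughout. All 8 members tested of 11 listed fell (24.2% of all genes did), with a median log2 change of -1.99. All 8 had been higher than control at day 5, against 1.65% of all genes (median 3.23, or 3.24 with Gbp11 set to its lower bound). Gbp11 passed the filter at day 5 only through its level in treated cells. All 6 that could be tested at day 7 were still higher than control (median 1.42), while Gbp2b and Gbp11 had fallen below the filter and were not tested. Gbp2 read 7229 and 6739 normalized counts at day 5 and 2603 and 2247 at day 7, above its control levels of 773.4 and 895.2 at day 5 and 853.6 and 855.1 at day 7. It fell (log2 change -1.53 ± 0.09 (SE), adjusted p = 0.00021) and was 8.37-fold over control at day 5 and 2.84-fold at day 7. Gbp7 fell further, from 4026 and 4167 to 917.1 and 849.3 (log2 change -2.21 ± 0.08 (SE), adjusted p = 7.7e-05), with control libraries all between 385.2 and 436.0. Gbp2b had the largest decline of the family, from 107.8 and 93.3 to 10.7 and 6.93 (log2 change -3.39 ± 0.31 (SE), adjusted p = 0.0008), and Gbp9 the smallest, from 449.3 and 453.9 to 292.1 and 240.5 (log2 change -0.77 ± 0.14 (SE), adjusted p = 0.0063). Between arms all 7 members tested were lower, with a median of -1.60. The members of this cluster are close copies of each other and may share reads.

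**Figure D1:**
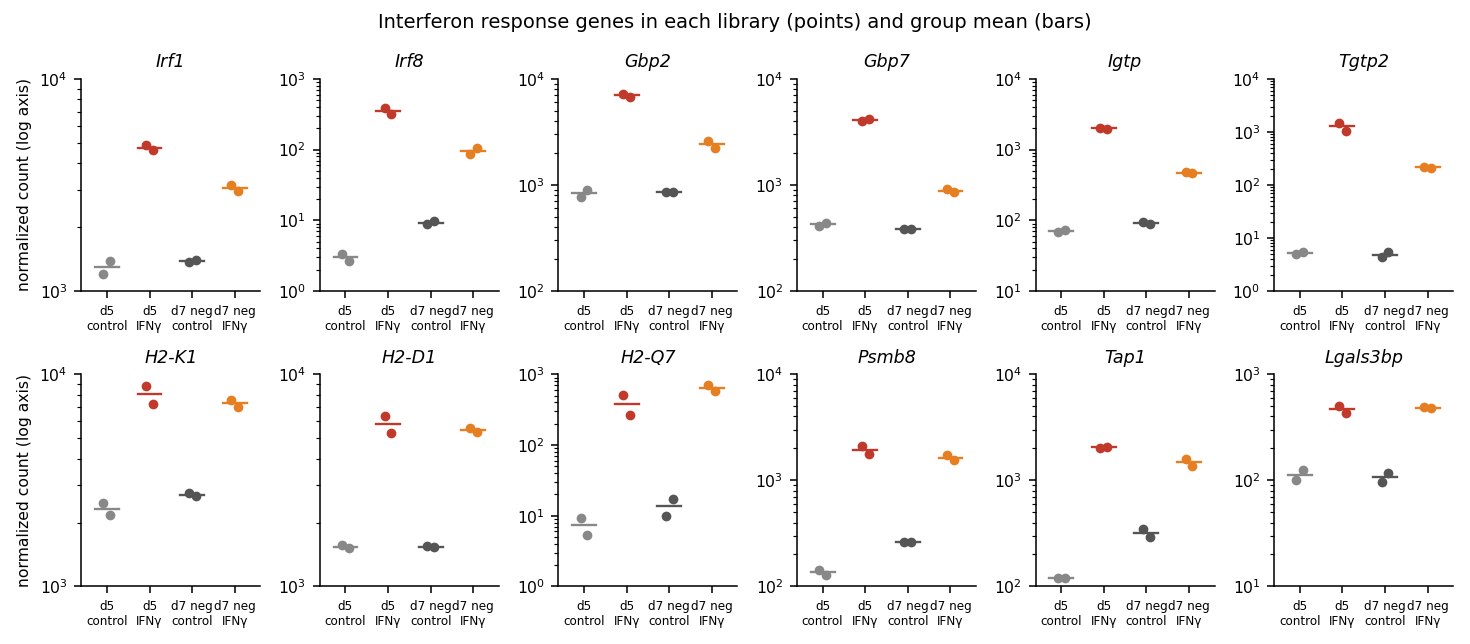
Normalized counts on a log axis for 12 interferon response genes, with a point for each of the 2 libraries of a group and a bar at the group mean, for day 5 (d5) and day 7 X-GFP negative (d7 neg) cells of the control and IFNγ arms. In the treated arm Gbp7 falls to 21.6% and Tgtp2 to 16.8% of their day 5 means, while H2-D1 keeps 93.8%, and every treated library lies above every control library of the same day.

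The IRGs, GTPases that disrupt the vacuoles of intracellular parasites, declined likewise. Of 14 listed genes 12 were tested and 11 fell (24.2% of all genes did), with a median of -2.0. All 12 had been higher at day 5, against 1.65% of all genes. The day 5 median was 4.75, or 4.68 with the 6 genes at the control floor set to their lower bounds. Those 6 passed the filter at day 5 only through their level in treated cells, so their being higher was largely set by the filter. All 8 tested at day 7 remained higher than control, but a gene low in control cells was tested only where treated cells were still high. Tgtp1, Ifi47 and Iigp1 had 3 reads or fewer in each day 7 control library. Gm4951, Gm12185 and Gm4841, with 0 reads in those libraries, had fallen below the filter and were not tested. Igtp, which encodes IRGM3, read 2042 and 1937 normalized counts at day 5 and 480.0 and 466.2 at day 7, with 67.3 and 72.8 at day 5 and 94.4 and 89.1 at day 7 in control cells. It fell (log2 change -2.07 ± 0.09 (SE), adjusted p = 8e-05) and was 28.4-fold over control at day 5 and still 5.16-fold at day 7. Irgm1, a regulator of the family, fell from 3401 and 3325 to 1143 and 1156 (log2 change -1.55 ± 0.07 (SE), adjusted p = 9.3e-05), and Irgm2 from 1554 and 1386 to 497.2 and 561.2 (log2 change -1.47 ± 0.11 (SE), adjusted p = 0.00039). Igtp, Irgm1 and Irgm2 thus kept over 20% of their day 5 means, and Tgtp2, Iigp1 and Ifi47, given next, kept less. Not all other members kept less: Gm12185 went from a mean of 35.0 to 8.21 and Gm4841 from 28.6 to 7.72. Tgtp2 kept 16.8% of its day 5 mean, going from 1492 and 1049 to 216.9 and 209.8 with 4.39 to 5.36 normalized counts in the control libraries (log2 change -2.55 ± 0.17 (SE), adjusted p = 0.00032). Iigp1 kept 8.07%, from 421.7 and 453.9 to 30.1 and 40.6, and was still at least 10.9-fold over control at day 7, where control cells held 2 reads in each library. Ifi47 kept 15.6% and was at least 19.0-fold over control at day 7. Between arms 9 of 10 genes tested were lower, with a median of -2.33, or -1.98 over the 5 with no group at the floor of 3 reads per library. Tgtp1 and Tgtp2, and Iigp1 and Gm4951, are near copies that may share reads.

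MHC class I genes took a different course. Of 14 listed, 13 were tested, and 6 rose and 3 fell in the treated arm, with a median of 0.33. At day 5, 12 of 12 tested had been higher than control (median 2.13), and at day 7 X-GFP negative 13 of 13 were (median 1.43). Of all genes 1.65% and 31.1% were called higher at these days. The split within the treated arm rests on single libraries, since 1 gene rose without day 7 replicate 1 and all 3 falls were lost without day 7 replicate 2. H2-D1, a classical class I heavy chain, read 6378 and 5261 normalized counts at day 5 and 5587 and 5329 at day 7, so the groups overlapped. Control cells held 1560.3 and 1515 at day 5 and 1543 and 1534 at day 7, and the excess over control at day 7 was 3.55-fold (log2 ratio 1.83 ± 0.06 (SE), adjusted p = 4.7e-07), against 3.78-fold at day 5. H2-K1, the other classical heavy chain, read 8835 and 7261 and then 7552 and 7044, again with overlap between the days (log2 change -0.14 ± 0.10 (SE), adjusted p = 0.32), and 2466 and 2165 at day 5 and 2759 and 2657 at day 7 in control cells. The nonclassical H2-Q7 was higher at day 7 in both libraries, with 502.7 and 264.9 and then 700.2 and 580.0 normalized counts (log2 change 0.80 ± 0.28 (SE), adjusted p = 0.058), and this call was lost without day 7 replicate 1. Control cells held 9.26 and 5.33 at day 5 and 9.87 and 17.2 at day 7. H2-Q4 rose from 748.5 and 630.3 to 1143 and 1012 (log2 change 0.65 ± 0.12 (SE), adjusted p = 0.0066), and control cells from 72.4 and 93.2 to 215.0 and 191.0. H2-Q6 and H2-Q7 may share reads. B2m, the light chain common to all class I molecules, fell from 8022 and 6788 to 6072 and 5747 (log2 change -0.32 ± 0.09 (SE), adjusted p = 0.032), a call lost without day 7 replicate 2, and remained 1.51-fold over control at day 7. Between arms 6 of 13 genes were lower (3 without treated day 5 replicate 1, treated day 7 replicate 2 or control day 7 replicate 1) and the other 7 not called.

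In class I antigen processing 9 of 14 genes fell (5 without day 7 replicate 1) and the others were not called, with a median of -0.31. Above control were 10 of the 14 at day 5 and 11 at day 7, against 1.65% and 31.1% of all genes. The members not above control at day 7 were called below it, as were 30.8% of all genes. Nlrc5, the transactivator of class I genes, had the largest fall of the 14, from 1466 and 1351 to 475.7 and 502.8 normalized counts (log2 change -1.52 ± 0.09 (SE), adjusted p = 0.00025), while control cells went from 66.5 and 29.3 to 134.9 and 174.9. Tap1, a subunit of the peptide transporter, fell from 2039 and 2083 to 1584 and 1378 (log2 change -0.48 ± 0.09 (SE), adjusted p = 0.0074) and was 17-fold over control at day 5 and 4.63-fold at day 7. Control cells rose for this gene, from 121.2 and 120.8 to 344.5 and 295.1 (difference between arms -1.87 ± 0.16 (SE), adjusted p = 0.00028). Of the immunoproteasome subunits, Psmb9 fell from 756.3 and 696.0 to 453.2 and 442.5 (log2 change -0.69 ± 0.10 (SE), adjusted p = 0.0033) and Psmb8 read 2122 and 1776 and then 1717 and 1556 (log2 change -0.25 ± 0.11 (SE), adjusted p = 0.11). Psmb9 was 16.2-fold and Psmb8 6.27-fold over control at day 7. Psme1 and Psme2, the proteasome activator subunits, kept 90.9% and 78.8% of their day 5 means.

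**Figure D2:**
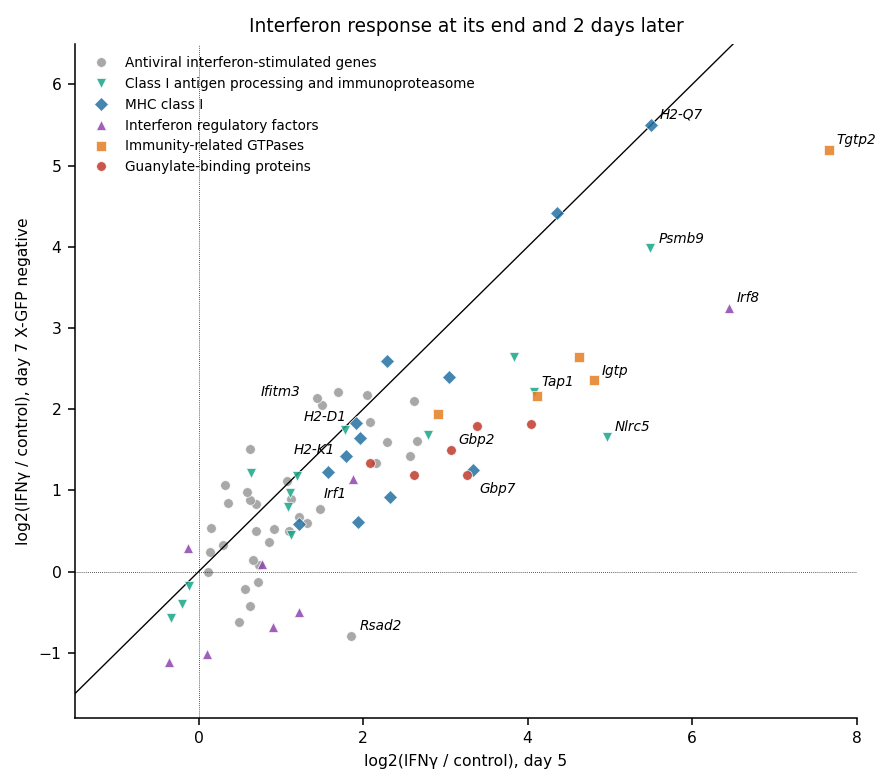
Log2 ratio of IFNγ to control at day 5 (horizontal) and at day 7 X-GFP negative (vertical) from limma for the genes of 6 lists, 1 symbol per gene, with equal values on the solid line and genes at or under 3 reads in each library of either control group left out. GBPs, IRGs and Irf8 lie below the line, with Gbp7 at 3.27 and 1.19, and H2-D1 at 1.91 and 1.83 lies near it.

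Of 9 class II presentation genes tested 2 rose and 2 fell, near the shares of all genes (23.1% and 24.2%). Some of these calls were lost without day 7 replicate 1, day 5 replicate 1 or day 7 replicate 2. H2-Ab1, a class II β chain, rose in both arms, from 45.7 and 34.8 to 223.4 and 229.6 in treated and from 21.9 and 18.6 to 204.1 and 163.1 in control cells, while the invariant chain Cd74 fell from 95.7 and 87.8 to 18.3 and 36.6 (log2 change -1.78 ± 0.35 (SE), adjusted p = 0.0083). Of 14 chemokines and surface ligands 11 were tested, and 6 fell and the others were not called, with a median of -1.59, the same with Cxcl9 set to its bound. Cxcl10, a chemokine that attracts T cells, went from 92.3 and 92.5 to 27.9 and 16.8 (log2 change -2.04 ± 0.30 (SE), adjusted p = 0.0032) and control cells from 5.05 and 2.66 to 26.3 and 15.0, so at day 7 the arms overlapped. Cxcl9, of the same family, was at 0 in both day 7 libraries after 8.62 and 34.0 at day 5, at least 6.89-fold lower. Cd274, which encodes the checkpoint ligand PD-L1, fell from 414.8 and 526.7 to 126.7 and 105.9 (log2 change -2.0 ± 0.18 (SE), adjusted p = 0.0007), with 95.5 and 78.3 in control cells at day 7.

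Antiviral genes shared with the type I response fell as a group. Of 40 listed 39 were tested, and 3 rose and 27 fell (23.1% and 24.2% of all genes), with a median of -0.75. At day 7, 27 of 36 were higher than control, against 31.1% of all genes. Of 37 tested in the control arm, 17 fell there too (29.5% of all genes did). Between arms 15 were lower and 3 higher with a median of -0.24. Of the higher ones 1 was left without treated day 7 replicate 2 or control day 7 replicate 1, and 5 were higher without control day 5 replicate 1. Parp14, an ADP-ribosyltransferase of the interferon response, fell from 2381 and 2733 to 1059 and 1001 (log2 change -1.31 ± 0.09 (SE), adjusted p = 0.00038) with a negative difference between arms (difference between arms -0.81 ± 0.18 (SE), adjusted p = 0.01). Xaf1, a promoter of apoptosis, fell from 2460.2 and 2225 to 880.6 and 945.3 (log2 change -1.36 ± 0.09 (SE), adjusted p = 0.00029), below its day 7 control levels of 1465 and 1354 (log2 ratio -0.63 ± 0.08 (SE), adjusted p = 0.00021). Other members were near their day 5 level or above it. Ifitm3, which blocks viral entry, read 2176 and 1943 and then 1735 and 1953, and fell in control cells from 698.5 and 825.0 to 380.7 and 460.3, so its excess over control went from 2.70-fold to 4.39-fold (difference between arms 0.70 ± 0.17 (SE), adjusted p = 0.016). Lgals3bp, a secreted galectin ligand, read 499.3 and 435.0 and then 488.6 and 480.1, 4.16-fold and 4.54-fold over control. Ifitm1 rose from 716.6 and 453.2 to 1721 and 1664 (log2 change 1.57 ± 0.19 (SE), adjusted p = 0.0019), with 506.9 and 691.0 in control cells at day 7.

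Complement and cell death effectors also fell, 11 of 14 tested against 1 that rose, with a median of -0.70. Without day 7 replicate 1, 7 fell; the rise was lost without either day 7 library, and 2 rose without day 5 replicate 2. Between arms 8 of 13 were lower and the other 5 not called, and 5 were lower without day 7 replicate 2 of the treated arm. Gsdmd, the pore-forming effector of pyroptosis, fell from 789.9 and 1064 to 496.1 and 492.9 (log2 change -0.89 ± 0.15 (SE), adjusted p = 0.0047), still 1.52-fold over control. Fas, a death receptor, fell from 75.9 and 68.8 to 33.3 and 32.7 (log2 change -1.11 ± 0.23 (SE), adjusted p = 0.011). Serping1, the C1 inhibitor, fell from 951.1 and 959.3 to 590.6 and 533.5 (log2 change -0.77 ± 0.10 (SE), adjusted p = 0.0021) and remained 4.71-fold over control at day 7.

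The course of the response was also read from a gene list taken from other libraries, the 221 genes induced at least 2-fold by IFNγ at day 2 with a treated mean of at least 100 normalized counts. Of these, 209 were tested in the treated arm, and 97 fell (46.4%) and 36 rose (17.2%), with a median of -0.34, against 24.2% and 23.1% of all genes. Without day 7 replicate 1, 19 rose. Of 176 tested against control at both days, 94 were called higher at day 5 and 114 at day 7. Both calls were made for 77, which is 81.9% of the day 5 calls and 67.5% of the day 7 calls. Of all genes 1.65% were called higher at day 5 and 31.1% at day 7, so the counts of the days are not on an equal footing. Genes called at day 5 that fell below the filter at day 7, such as Cxcl9, Gbp2b, Batf2 and Xdh, are not among the 176. The day 5 calls also rest on single libraries. Between arms 91 of 195 were lower and 15 higher, with a median of -0.63, and 9 were higher without day 7 replicate 2 of the treated arm and 8 without day 7 replicate 1 of the control arm. With the rule raised to at least 4-fold, 116 genes were left, of which 63 of 108 fell and 11 rose in the treated arm with a median of -0.74. At day 7, 72 of the 89 that passed the filter were higher than control, against 31.1% of all genes, with a median log2 ratio of 1.32. A gene low in control cells passed that filter only where treated cells were still high, so this count and median favor genes that persisted. Of the induced genes, 156 had a promoter in the table, 19.2% of them with a GAS and 23.7% with an ISRE match against 8.13% and 3.46% of all genes. Among those lower between arms 27.0% of 63 held a GAS and 33.3% an ISRE match, against 13.0% and 19.5% of 77 that were not lower.

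**Figure D3:**
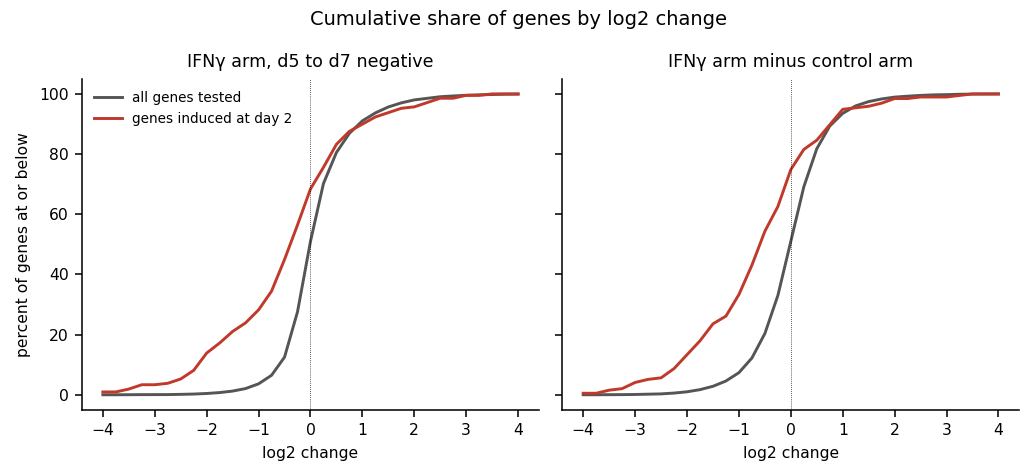
Cumulative percent of genes by log2 change, for all genes tested (grey) and the genes induced at day 2 (red), in the treated arm (left) and as the difference between arms (right). Of the induced genes 28.2% lie at or below -1 in the treated arm and 33.3% between arms, against 3.65% and 7.36% of all genes.

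Among the most negative differences between arms within this list were those of Cxcl10 (difference between arms -4.19 ± 0.56 (SE), adjusted p = 0.0013) and Nlrc5 (difference between arms -3.30 ± 0.43 (SE), adjusted p = 0.0012). Batf2, an IFNγ-induced transcription factor, fell from 29.3 and 26.9 to 4.30 and 5.94 (log2 change -2.26 ± 0.37 (SE), adjusted p = 0.0045). Of the most positive differences, Sp5, a target of Wnt signaling, went from 67.3 and 61.7 to 320.0 and 360.3 while control cells read 56.4 and 82.6 at day 5 and 46.1 and 29.0 at day 7 (difference between arms 3.26 ± 0.37 (SE), adjusted p = 0.00075). Jam3, a junctional adhesion molecule, went from 290.6 and 174.8 to 470.4 and 497.9 and control cells held 120.4 and 125.2 at day 5 and 63.6 and 78.3 at day 7 (difference between arms 1.89 ± 0.32 (SE), adjusted p = 0.0031).

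LIF acts through LIFR and gp130 on STAT3 and supports naive pluripotency. Of 11 genes of this branch 6 rose and 1 fell in the treated arm, with a median of 0.22, and 5 rose and 1 fell in the control arm, with a median of 0.21. Between arms 2 went further up and 2 further down in the treated arm, near the shares of all genes (17.8% and 22.5%). The treated-arm count of falls was 2 without day 5 treated replicate 2, its only call was lost without either day 7 treated replicate, and the control-arm count of falls was 4 without day 5 control replicate 1. Both calls further up were lost without treated replicate 2 of either day or day 7 control replicate 1, and the count fell to 1 without day 7 treated replicate 1 or control replicate 2 of either day. Lifr rose from 2833 and 3852 to 4749.8 and 5105 (log2 change 0.58 ± 0.14 (SE), adjusted p = 0.017), and control cells read 1296 and 1959 at day 5 and 1684 and 2012 at day 7. Pim3, a kinase induced by STAT3, rose from 2434 and 2267 to 4108 and 3311 (log2 change 0.65 ± 0.11 (SE), adjusted p = 0.0049) and in control cells from 1917 and 1739 to 3685 and 3471. Klf5, a STAT3-linked factor of the naive state, rose from 357.0 and 329.8 to 664.7 and 540.5 (log2 change 0.80 ± 0.14 (SE), adjusted p = 0.005), with control cells at 276.9 and 307.3 at day 5 and 535.4 and 449.6 at day 7.

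More pluripotency genes were higher than lower between arms. Of 28 genes 9 rose and 5 fell in the treated arm (3 fell without day 7 replicate 1), with a median of 0.09, while in the control arm 5 rose and 13 fell (34.2% and 29.5% of all genes). Of the 5, 3 were left without day 5 control replicate 1 and 2 without day 7 control replicate 2. Between arms 15 were higher and the others not called, with a median of 0.49, and 7 were higher in a fit of all 24 libraries. Nanog, a core factor of the network, rose from 4016 and 3564 to 6297 and 5569 (log2 change 0.65 ± 0.09 (SE), adjusted p = 0.0028) with control cells at 4184 and 4110.0 at day 5 and 4542 and 4823 at day 7. Tdgf1, the Nodal coreceptor CRIPTO, rose from 8663 and 7989 to 15589.7 and 13648 (log2 change 0.81 ± 0.09 (SE), adjusted p = 0.0012), with all 4 control libraries between 7883 and 8739. Nr5a2, a factor that can replace Oct4 in reprogramming, fell from 789.0 and 760.0 to 487.5 and 448.4 (log2 change -0.73 ± 0.10 (SE), adjusted p = 0.0028), and L1td1, an RNA-binding protein of pluripotent cells, from 11810.4 and 10726 to 5506 and 6621 (log2 change -0.90 ± 0.10 (SE), adjusted p = 0.0014). Both fell in control cells too, L1td1 from 12817 and 14981 to 4485 and 5045.

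Epithelial genes were lower in the treated arm after withdrawal. At day 5 limma called 0 of 15 between arms, with 4 at an unadjusted p under 0.05, and 3 higher and 3 lower without treated replicate 1. In the control arm 13 of 15 then rose, and in the treated arm 1 rose and 6 fell, with a median of -0.21 (10 fell without day 5 replicate 1). Between arms 13 of 15 were lower, with a median of -1.16, and all 15 were below control at day 7. Dsp, the desmosome component desmoplakin, read 14329 and 15926 and then 9365 and 10061 in treated cells (log2 change -0.64 ± 0.08 (SE), adjusted p = 0.0018). Control cells read 19121 and 16179.9 at day 5 and 32315 and 32103 at day 7, which gave a negative difference between arms (difference between arms -1.51 ± 0.12 (SE), adjusted p = 0.00025). Krt8, a keratin of simple epithelia, fell from 15203 and 12776 to 7517 and 8319 (log2 change -0.82 ± 0.10 (SE), adjusted p = 0.0017), while control cells went from 20567 and 16303 to 25278 and 22690.3. Ovol1, a repressor of mesenchymal fate, fell from 449.3 and 382.0 to 180.4 and 254.4 (log2 change -0.95 ± 0.19 (SE), adjusted p = 0.0093), with control cells at 578.2 and 570.1 at day 5 and 1072 and 950.6 at day 7. Markers of keratinocyte or trophectoderm-like epithelium summed to 9558 to 10361 at day 5 and 5668 to 6715 at day 7 in the treated arm, and to 13206 to 13488 and 10416 to 11461 in the control arm, and their part in this result was not tested.

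Of 17 mesenchymal genes 15 were tested, and 8 rose and 1 fell in the treated arm with a median of 0.57 (23.1% and 24.2% of all genes). Between arms 4 were higher and 1 lower (17.8% and 22.5% of all genes), the latter call lost without treated day 7 replicate 1. Vim, an intermediate filament protein, rose from 2587 and 1410.1 to 4339.6 and 4672 (log2 change 1.24 ± 0.24 (SE), adjusted p = 0.0087) while control cells went from 1962 and 1719 to 1007 and 874.4 (difference between arms 2.20 ± 0.31 (SE), adjusted p = 0.0015). Zeb2, a repressor of epithelial genes, rose from 255.2 and 218.3 to 484.3 and 497.9 (log2 change 1.05 ± 0.13 (SE), adjusted p = 0.0019), and control cells held 156.5 and 175.0 at day 5 and 115.2 and 134.1 at day 7 (difference between arms 1.46 ± 0.20 (SE), adjusted p = 0.0014). Tagln, a smooth muscle actin-binding protein, rose in both arms, from 77.6 and 47.5 to 251.3 and 170.3 and from 69.0 and 44.4 to 216.1 and 143.8. The fibroblast markers summed above had overlapping ranges at day 5 and day 7 in the treated arm.

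Among genes whose symbol is not a Gm, Rik or numbered clone name, 8 of the 12 largest falls were those of response genes: Iigp1, Gbp2b, Tgtp1, Ifi47, Tgtp2, Gbp3, Gbp7 and Mpeg1, the pore-forming perforin-2 (log2 change -2.26 ± 0.23 (SE), adjusted p = 0.0011). The other 4 were the chemokines Ccl2 and Ccl7, Ly6g6c and Abca12. Ccl2 fell from 121.6 and 209.6 to 31.1 and 30.7 (log2 change -2.33 ± 0.29 (SE), adjusted p = 0.0019) and also fell in control cells, from 69.9 and 63.9 to 16.5 and 23.6. Abca12, a lipid transporter of keratinocytes, fell from 187.1 and 327.4 to 34.4 and 50.5 (log2 change -2.54 ± 0.31 (SE), adjusted p = 0.0019) while control cells held 208.7 and 209.6 at day 5 and 274.3 and 237.1 at day 7. Ly6g6c, a Ly6-family surface protein gene, fell from 1097 and 978.3 to 132.1 and 193.0 (log2 change -2.69 ± 0.19 (SE), adjusted p = 0.00035). Of the genes left out by name, Gm4951 of the IRG list fell further than these 12, from 217.3 and 194.5 to 12.9 and 6.93 (log2 change -4.30 ± 0.32 (SE), adjusted p = 0.00044), and Gm12250 of the same list fell from 330.3 and 320.3 to 24.7 and 29.7 (log2 change -3.54 ± 0.20 (SE), adjusted p = 0.00017).

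The 12 largest rises by the same rule held no gene of the interferon lists. Ndufa4l2, a hypoxia-induced mitochondrial protein, rose from 16.4 and 3.16 to 656.1 and 670.1 (log2 change 6.29 ± 0.58 (SE), adjusted p = 0.00081), and in control cells from 109.4 and 58.6 to 1091 and 1046. The pseudogene Ppp1r2-ps1 went from 2 reads and 1 read to 139.6 and 139.6 normalized counts, at least 56.3-fold higher, with 137.1 and 159.9 in control cells at day 7. Others were Gpc3, a glypican that binds growth factors, from 168.2 and 52.2 to 1227 and 1313, Loxl2, which crosslinks collagen, from 105.2 and 43.5 to 864.5 and 897.8, and Rspo3, an amplifier of Wnt signaling, from 29.3 and 10.3 to 210.5 and 251.4. Rspo3 held 15.1 and 26.6 at day 5 and 27.4 and 20.4 at day 7 in control cells, so its rise was in the treated arm (difference between arms 3.42 ± 0.64 (SE), adjusted p = 0.0045), whereas Loxl2 rose to 883.2 and 791.8 in control cells too. Pygl, a glycogen phosphorylase, and Irs4, an insulin receptor substrate, completed the rises outside development.

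Several of the largest rises were developmental regulators. Cer1, a secreted antagonist of Nodal and BMP, read 31.0 and 9.49 normalized counts at day 5 and 492.9 and 437.5 at day 7 (log2 change 4.67 ± 0.47 (SE), adjusted p = 0.001), with 7.57 and 12.4 at day 5 and 25.2 and 16.1 at day 7 in control cells. Fgf8, a growth factor of the primitive streak, rose from 59.5 and 22.9 to 781.8 and 609.7 (log2 change 4.18 ± 0.40 (SE), adjusted p = 0.00089) and in control cells from 75.7 and 77.3 to 154.7 and 179.2. Lhx1, an organizer transcription factor, rose from 17.2 and 7.91 to 143.9 and 167.3 (log2 change 3.61 ± 0.37 (SE), adjusted p = 0.0011), while control cells went from 14.3 and 33.7 to 8.78 and 6.44 (difference between arms 5.05 ± 0.65 (SE), adjusted p = 0.0011). T (brachyury), the defining factor of the streak and its mesoderm, rose from 582.9 and 342.4 to 2237 and 2620.1 (log2 change 2.44 ± 0.23 (SE), adjusted p = 0.00083), and control cells went down from 473.0 and 754.9 to 251.2 and 183.5 (difference between arms 3.91 ± 0.39 (SE), adjusted p = 0.00047). Aplnr, the apelin receptor of early mesoderm, rose from 43.1 and 17.4 to 325.4 and 468.2 (log2 change 3.78 ± 0.40 (SE), adjusted p = 0.0012), with control cells at 19.4 and 32.0 at day 5 and 11 and 17.2 at day 7. Its ligand gene Apln had a difference between arms of 3.70 (adjusted p = 0.0032), and Cfc1, a Nodal coreceptor, rose from 18.1 and 11.1 to 225.5 and 199.9 (log2 change 3.81 ± 0.29 (SE), adjusted p = 0.00044). At day 5 treated replicate 1 was above replicate 2 for each of these 7 genes, and both lay below the day 7 libraries.

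A list of 26 primitive streak and gastrulation genes was then drawn up after these values were seen, and is described without a test. Of 24 measured above the filter 22 had a call upward and 0 downward in the treated arm, with a median of 2.40, against 6 upward and 7 downward of 23 (3 downward without day 5 control replicate 2) and a median of 0.15 in control cells. Mixl1, a homeobox factor of the streak, read 9.49 and 4.75 and then 46.2 and 58.4, with 3.29 and 4.29 in control cells at day 7. Eomes, a T-box factor of endoderm and streak, read 228.5 and 84.6 and then 585.3 and 694.9, with 298.4 and 292.9 in control cells. Nodal and its inhibitor Lefty1 also stood higher at day 7. Nodal read 604.5 and 571.8 and then 963.3 and 980.9, and Lefty1 1579.8 and 948.2 and then 5875 and 5020.5. Tbx6, a presomitic mesoderm factor, was lower in treated than in control cells at day 7, with 35.4 and 36.6 in treated and 82.3 and 50.4 in control cells at day 7.

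**Figure D4:**
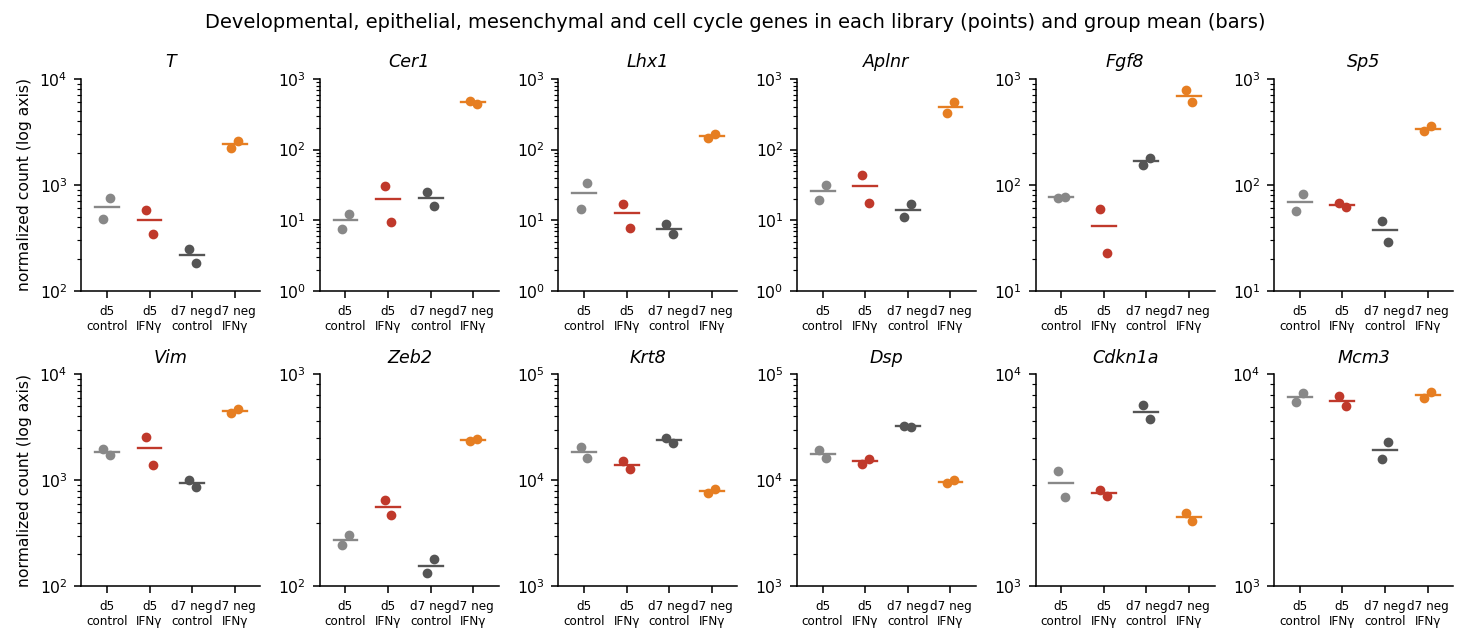
Normalized counts on a log axis for 12 developmental, mesenchymal, epithelial and cell cycle genes, laid out as in the plot of the interferon response genes. Each of T, Cer1, Lhx1, Aplnr, Fgf8 and Sp5 is highest in the day 7 IFNγ libraries, and Dsp, Krt8 and Cdkn1a are highest in the day 7 control libraries.

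More genes of glycolysis and respiration rose than fell in both arms. Of 23 genes of glycolysis and respiration 14 rose and 2 fell in the treated arm, with a median of 0.86, and 16 rose and 4 fell (2 without day 7 replicate 1) in the control arm, with a median of 0.62. Pgk1, phosphoglycerate kinase, rose from 2475 and 1798 to 10789 and 10857 (log2 change 2.36 ± 0.14 (SE), adjusted p = 0.00021), and Slc2a1, the glucose transporter GLUT1, from 8878 and 6293 to 30385 and 29745 (log2 change 2.01 ± 0.15 (SE), adjusted p = 0.00039), with control cells at 47505 and 41843 at day 7. The respiratory subunit Atp5b read 40391 and 42313 and then 40170.0 and 41058.

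More cell cycle genes fell in control than in treated cells. Of 27 genes 3 rose and 7 fell in the treated arm (23.1% and 24.2% of all genes), and fewer did so without day 7 replicate 1. In the control arm 6 rose and 19 fell (34.2% and 29.5% of all genes). Between arms 13 were higher and 5 lower with a median of 0.23 (17.8% and 22.5% of all genes). The falls in the treated arm and the lower calls between arms were thus near the shares of all genes. The 5 lower were the inhibitors Cdkn1a, Cdkn1b, Cdkn2a and Cdkn2b, which stop the cycle, and the cyclin Ccnd1. Cdkn1a read 2856 and 2681 and then 2215 and 2045 in treated cells (log2 change -0.38 ± 0.08 (SE), adjusted p = 0.011), and 3512 and 2653 at day 5 and 7128 and 6183 at day 7 in control cells (difference between arms -1.5 ± 0.17 (SE), adjusted p = 0.00082). Cdkn2b read 139.7 and 219.9 and then 148.2 and 166.3 in treated cells, and 141.4 and 122.6 at day 5 and 446.5 and 398.1 at day 7 in control cells (difference between arms -1.83 ± 0.29 (SE), adjusted p = 0.0025). Mcm3, a subunit of the replicative helicase, read 7857 and 7073 and then 7701 and 8249 in treated cells, and 7397 and 8165 at day 5 and 3991 and 4804 at day 7 in control cells (difference between arms 0.92 ± 0.14 (SE), adjusted p = 0.0018).

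Of 14 genes of DNA methylation and demethylation 4 rose and 6 fell in the treated arm, against 23.1% and 24.2% of all genes. Fewer fell without day 7 replicate 1. Dnmt3l, the cofactor of the de novo methyltransferases, rose from 800.2 and 716.5 to 3914 and 3448 (log2 change 2.28 ± 0.10 (SE), adjusted p = 8e-05) and in control cells from 505.0 and 674.1 to 1382 and 1487. Dnmt3b, a de novo methyltransferase, read 5194 and 3963 and then 6058 and 7421 in treated cells (log2 change 0.56 ± 0.14 (SE), adjusted p = 0.022), while control cells fell from 4369.6 and 5495 to 1703 and 2211 (difference between arms 1.90 ± 0.24 (SE), adjusted p = 0.0011). Tet2, a demethylating dioxygenase, fell from 8657 and 7731 to 4285 and 4816 (log2 change -0.85 ± 0.09 (SE), adjusted p = 0.0011), and control cells went from 9787 and 8959 to 6933 and 7968 (difference between arms -0.52 ± 0.13 (SE), adjusted p = 0.017).

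Xist, the RNA that coats the silenced X chromosome, fell from 8783 and 11239 to 4562 and 4715 (log2 change -1.10 ± 0.11 (SE), adjusted p = 0.0011), and control cells went from 9180.3 and 10161 to 5946 and 6112. The deposited allelic table gives 1 X mus share per gene and population for 316 X-linked genes, with no replicates and no read depth, so it was not tested. A share near 0 means that the X mus copy is silent. The median share was 0.0125 at day 5 and 0.0188 at day 7 X-GFP negative in the treated arm, and 0.0117 and 0.00896 in the control arm. From day 5 to day 7 the share was higher in 179 genes, lower in 105 and equal in 32 in the treated arm, and higher in 111, lower in 153 and equal in 52 in the control arm. Genes of 1 X chromosome are not independent, and the day 7 cells were gated on the absence of X-GFP, which reports this chromosome.

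**Figure D5:**
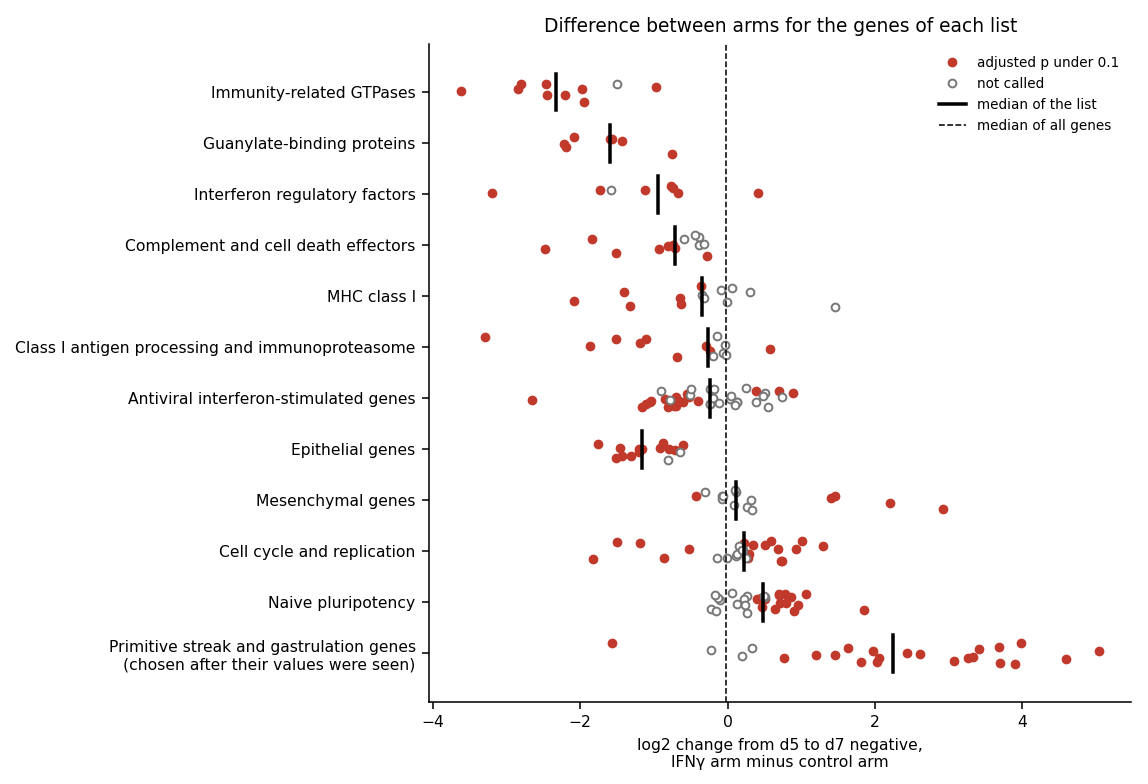
Difference between arms in the log2 change from day 5 to day 7 X-GFP negative for the genes of 12 lists, filled where the adjusted p was under 0.1, with a bar at each list's median and a dashed line at the median of all 15407 genes. IRGs (median -2.33), GBPs (-1.60) and epithelial genes (-1.16) lie to the left, and the streak list (2.25), chosen after its values were seen, to the right.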

How the data were processed

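RNA from sorted mouse cells was sequenced by the authors from rRNA-depleted, stranded libraries, 2 per population. Reads were aligned to mm10 with strain SNPs masked using STAR, counted per gene with HTSeq 0.6.1 and normalized by DESeq2, per the paper's methods and the labels. The deposited table holds normalized counts, a signal that the authors made by dividing reads by size factors. The deposited allelic table holds 1 X mus score per gene and population as a proportion of allelic expression. The authors' other files were not used here.

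Whole reads were recovered from the steps of the normalized counts (100% of values whole within 0.001 reads) and gave the depth and the floor of 3 reads per library. Values were transformed to log2(normalized count + 1), genes with a mean of 10 or less in the libraries of a fit were left out, and limma 3.58.1 (R 4.3.3, trended variance) was fitted across all genes with Benjamini-Hochberg adjustment, two-sided, at 0.1. Fold changes on this scale understate the change of low genes. One fit compared the days in the treated arm and another compared the change between arms over 8 libraries. Alternatives were edgeR 4.0.16 and DESeq2 1.42.0 on the whole reads, other filters, pseudocounts, scalings and sample sets, a replicate block and leaving out each library. The limma step was tested on simulated data. Genes were named as members of fixed lists, as the 12 largest rises and falls in the treated arm, as the 8 largest differences between arms in each direction, or as the 8 of each direction among genes induced at day 2. The rules on the largest changes in the treated arm and between arms required an adjusted p under 0.1, groups without overlap, 1 group mean that reached 100, and a symbol other than a Gm, Rik or numbered clone name. Some genes of the lists are not reported here by name. Members and lists were chosen with earlier results of these data known. Counting intervals and floors cover counting error only. Figures were drawn with matplotlib 3.10.9.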

Additional observations from a re-analysis of the deposited data

Results flagged for a closer look

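The change from day 5 to day 7 X-GFP negative differed between the arms by limma for 2746 genes that went further up and 3465 that went further down in the treated arm.

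Within the rule of the 8 most negative differences, Nlrc5 (-3.30) fell in treated cells and rose in control cells. Irf8 (-3.20) and Ifi47 (-3.08) fell in treated cells and stayed under 10 normalized counts in the control libraries. Irf8 changed by -1.85 in treated cells, and the rest of its difference was a rise at few reads in control cells. Ifi47 had 4 reads or fewer in the control libraries, so the fitted differences of both genes depend on the pseudocount. Others were near their day 5 level in treated cells and rose in control cells: Nos2 (-3.52), the inducible nitric oxide synthase, Il1a (-3.24), a cytokine, Klk12 (-3.07), a kallikrein protease, Crct1 (-3.05), a cornification gene, and Lims2 (-2.96), an adhesion adaptor. Nos2 went from 85.8 and 27.5 to 520.0 and 463.5 normalized counts in control cells, against 103.5 and 85.4 and then 79.5 and 82.2 in treated cells.

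The 8 most positive differences were those of Slc44a5 (5.07), Lhx1 (5.05), Aplnr (4.59), T (brachyury) (3.91), Samd3 (3.90), Apln (3.70), Cer1 (3.69) and Slc27a2 (3.49). Slc44a5, a choline transporter-like gene, rose from 11.2 and 15.0 to 102.0 and 140.6 normalized counts in treated cells, and was at least 37.3-fold over control at day 7, where control cells held 3 reads and 1 read. Slc27a2, a fatty acid transporter, rose from 94.0 and 26.9 to 554.1 and 561.2, with 95.5 to 114.8 in the control libraries.

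Among genes induced at day 2, the most negative differences outside those above were Cxcl10 (-4.19), the immunity-related GTPase 9930111J21Rik2 (-3.62), a gene listed without a symbol (-3.01) and Batf2 (-3.00), each with few reads in control cells at day 5. The most positive that were called were Sp5 (3.26), Asb4 (3.05), Car3 (2.40), Jam3 (1.89), Gsc (1.81), Slfn9 (1.71) and A2m (1.53). Scube1 (1.88), a secreted glycoprotein gene between Jam3 and Gsc in this order, was not called by limma (adjusted p = 0.11). The calls of Car3, Gsc and A2m were lost in some fits that left out 1 library, and Gsc fell to 1.09 and A2m to 0.70 without day 5 replicate 2 of the treated arm.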

How the results depend on the processing

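The counts in the treated arm ranged from 1691 to 3731 higher and from 1680 to 3625 lower when 1 library was left out, and those between arms from 1630 to 2765 and from 2285 to 3499. At day 5 the treated against control counts ranged from 97 to 958 and from 6 to 823, so they rest on single libraries. Bringing all libraries to an equal total gave 4132 higher genes between arms. The stricter rule for induction at day 2 left 116 genes. Taken as the mean over genes, the X mus share was 0.0400 and 0.0462 at day 5 and day 7 X-GFP negative in the treated arm and 0.0413 and 0.0406 in the control arm, and over genes at or under 0.1 in the precursor cells its median was 0.0102 and 0.0146, and 0.00980 and 0.00685. H2-K1 had a log2 change in the treated arm from -0.28 to 0.0064 when 1 library was left out, and so changed sign without day 5 replicate 1. Whether replicate numbers pair the libraries is not stated in the labels or methods. Deviations of same-numbered libraries correlated at -0.19 between the days of the treated arm, 0.12 in the control arm, and 0.36 and 0.19 between arms at day 5 and day 7. With a block for that number, the replicate block, 3143 and 3142 genes were called in the treated arm, 2909 and 3631 between arms, and 1810 and 1569 at day 5, where the cause was not tested. With the numbers crossed, an alternative added after seeing the data, 4141 and 4408 were called in the treated arm. edgeR called 3621 and 3647 genes in the treated arm and 2794 and 3348 between arms, and DESeq2 2768 and 2804, and 2306 and 2697.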
